A study of Mus musculus with 16 samples.

Results

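The genes described here encode subunits of the mitochondrial respiratory chain and of the ATP synthase. They were chosen by symbol on an Illumina mouse bead array: symbols beginning with Ndufa, Ndufb, Ndufc, Ndufs or Ndufv for complex I, Uqcr for complex III, Cox4 to Cox8 for complex IV and Atp5 for the ATP synthase (complex V), together with the Sdh genes of complex II. The rule matched 88 probes of 73 genes. A gene was kept where a probe had a detection p-value under 0.05 on at least 4 of 16 arrays, and its brightest probe was used. In all 68 genes passed, of 9680 genes in the series that passed the same filter. Of these, 30 belong to complex I, 3 to complex II, 6 to complex III, 13 to complex IV and 16 to complex V by current assignment, so that Ndufa4, which was named for complex I, was counted with complex IV. The prefixes also bring in Ndufaf1, an assembly factor of complex I, Cox7a2l, which joins complexes into supercomplexes, and Atp5s, coupling factor B, which is not a subunit of the purified enzyme.

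The RNA came from mouse haematopoietic cells enriched for stem cells, the marrow cells that maintain all blood lineages. Wild-type (WT) cells carried the CD45.1 form of the leukocyte surface protein CD45, and cells with a knock-in of the activated kinase Jak2VF, a model of polycythemia vera, carried CD45.2, so that the Jak2 genotype and the CD45 form cannot be told apart. The mice, whose background strain the labels give as C57B16, were given vehicle or a daily 10000 units of interferon alpha over 4 weeks, and each of the 4 groups (WT vehicle, WT interferon, Jak2VF vehicle and Jak2VF interferon) holds 4 arrays. Whether different animals stand behind the arrays of a group is not in the labels, and p-values therefore cover only the variation among these samples, some of which may be technical. The labels do not name the surface markers of the sort.

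The respiratory chain passes electrons from NADH, at complex I, and from succinate, at complex II, through ubiquinone to complex III and on to oxygen at complex IV, and the proton gradient that builds up drives the ATP synthase. Complexes I, III, IV and V each combine proteins encoded in the mitochondrial genome with nuclear-encoded proteins, and complex II is nuclear-encoded throughout; only nuclear genes are in the set. Quiescent haematopoietic stem cells are known to rely more on glycolysis than their progeny, and differentiation, the erythroid line included, comes with more mitochondrial respiration.

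The 5 genes that did not pass were Cox8b and Cox8c, the muscle and testis forms of a complex IV subunit, and Ndufs1, a core subunit of complex I, each with a probe detected on 0 arrays, Cox4i2, the second form of subunit 4, detected on 1 array, and Cox6a2, the heart and muscle form of subunit 6a, detected on 3. Sdha was not analysed here. Of the 68 genes that passed, 65 were detected on all 16 arrays. The others were Ndufab1, detected on 15, and Cox7a1 and Uqcrfs1, each detected on 8. Cox7a1 is the heart and muscle form of subunit 7a, and Uqcrfs1 is the Rieske iron-sulfur protein of complex III. Uqcrfs1 was above background on 0 of 4 WT vehicle arrays, so no fold is given against that group.

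The choice by symbol used no sequence, and the promoters of the set were searched for motifs. RefSeq promoter windows, running from 250 bases before to 50 bases after the start of a gene on GRCm38.p6, were matched for 59 of the 68 genes and gave 64 windows of 300 bases. The palindromic site of nuclear respiratory factor 1 (NRF1), a regulator of respiratory chain genes, was searched as GCGC, then A, any base and a second GCGC, on both strands. It lay in 15 of the 64 windows (23.4%), against 9.86% of the 9692 windows of all genes tested and 4.6% of all 32851 windows. The form with T at the free base, a special case of that motif that is its own reverse complement, was in 4 windows (6.25%), against 1.91% of the windows of genes tested. The YY1 letters AAGATGGCG, searched like the others on both strands, were in 7 windows (10.9%), against 3.07%, and the letters CCGGAAGT, bound by factors of the ETS family such as GABP, were in 5 (7.81%), against 7.93%. These matches describe letters and show no binding. The windows below belong to 4 genes that were higher in Jak2VF than in WT cells with interferon, and are shown as examples with and without a motif: Sdhd (chr9:50603800-50604099, minus strand) and Atp5g3 (chr2:73911277-73911576, minus strand) hold the NRF1 letters with 1 free base, Uqcr (current symbol Uqcr11, chr10:80406772-80407071, minus strand) holds the ETS letters, and Ndufab1 (chr7:122101799-122102098, minus strand) holds none of the 4 motifs. Capitals mark the motif, and sequences run 5′ to 3′ on the strand of the gene.

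Sdhd: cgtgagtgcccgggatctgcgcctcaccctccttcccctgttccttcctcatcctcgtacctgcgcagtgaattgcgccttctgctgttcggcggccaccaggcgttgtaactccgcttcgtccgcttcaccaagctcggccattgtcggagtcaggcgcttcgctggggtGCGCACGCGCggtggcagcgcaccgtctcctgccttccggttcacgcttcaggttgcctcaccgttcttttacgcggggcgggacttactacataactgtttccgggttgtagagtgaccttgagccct
Atp5g3: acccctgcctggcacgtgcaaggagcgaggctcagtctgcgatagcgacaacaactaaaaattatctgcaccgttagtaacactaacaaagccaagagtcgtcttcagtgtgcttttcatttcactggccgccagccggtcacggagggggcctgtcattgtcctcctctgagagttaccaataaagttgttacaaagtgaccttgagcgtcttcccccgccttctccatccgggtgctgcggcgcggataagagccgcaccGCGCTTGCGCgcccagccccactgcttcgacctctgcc
Uqcr: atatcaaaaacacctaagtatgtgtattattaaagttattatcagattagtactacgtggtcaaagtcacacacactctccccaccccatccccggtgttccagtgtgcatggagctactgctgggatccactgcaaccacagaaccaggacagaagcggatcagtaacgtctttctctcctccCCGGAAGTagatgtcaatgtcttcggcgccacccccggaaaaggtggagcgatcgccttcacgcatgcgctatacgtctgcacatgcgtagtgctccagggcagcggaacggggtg
Ndufab1: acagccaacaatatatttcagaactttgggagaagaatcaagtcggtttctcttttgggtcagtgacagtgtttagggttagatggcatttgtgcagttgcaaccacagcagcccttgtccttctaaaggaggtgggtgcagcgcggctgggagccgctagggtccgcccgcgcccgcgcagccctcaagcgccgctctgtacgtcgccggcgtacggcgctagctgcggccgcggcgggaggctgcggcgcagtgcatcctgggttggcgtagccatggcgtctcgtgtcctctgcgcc

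The arrays differed in brightness before normalization, with a mean intensity of 305 ± 122 (SD, n = 4) for WT vehicle, 498 ± 100 for Jak2VF vehicle, 684 ± 305 for WT interferon and 884 ± 218 for Jak2VF interferon. Brightness thus differed between the groups, and a fit with brightness as a covariate cannot fully separate it from genotype and treatment. All levels given from here on are log2 levels after background correction and quantile normalization. The median over the 68 genes of the deviation from each gene's mean ran with brightness across the arrays. It was 0.38 on the dimmest array, WT vehicle 3, with a mean intensity of 162.1, and -0.43 on WT interferon 1, at 1009. Within the WT interferon group the dim array 2, at 294, stood at 0.13, and the arrays 1, 3 and 4 stood at -0.43, -0.25 and -0.19. Within the Jak2VF interferon group the deviations were 0.15, 0.04, -0.21 and -0.05, and the brightest array, 3, was the lowest. Of the stem cell markers, 12 of 14 passed the filter and Flt3 and Fgd5 did not.

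**Figure D1:**
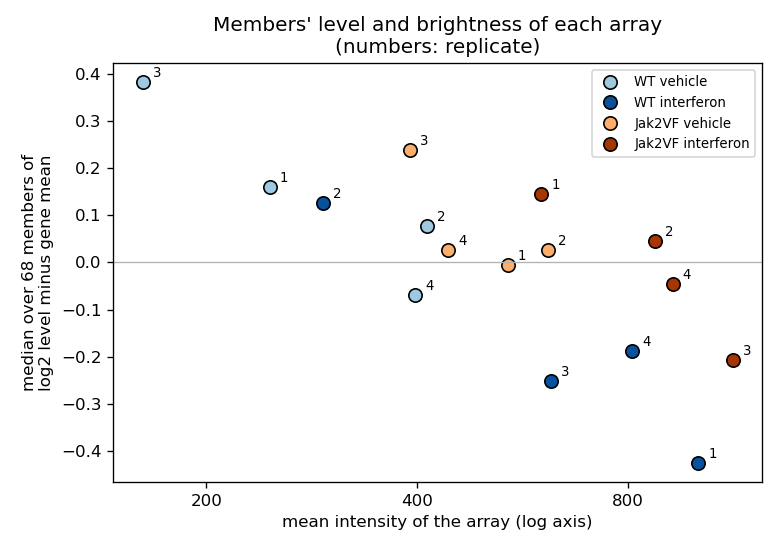
Median deviation of the 68 genes from their own means (log2, vertical axis) against the mean intensity of each array (log axis), 1 point per array, coloured by group and numbered by replicate. The dimmest array, WT vehicle 3, stands highest at 0.38, and WT interferon 1 stands lowest at -0.43.

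With interferon in WT cells the mean levels of most accessory subunits of complex I lay below those with vehicle, while the core subunits of complex I stood on both sides and the alpha and beta subunits of the ATP synthase lay above. None of these changes passed the threshold of an adjusted p under 0.05 (limma, Benjamini-Hochberg over all genes tested): 0 of 68 genes were called, against 2.27% of all genes. At an unadjusted p under 0.05, 7 genes were higher and 31 lower, together 38 of 68, where 31.8% of all genes reached that mark. The median log2 change of the set was -0.33, against 0.05 over all genes tested, and 51 of the 68 changes lay below 0.

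By role, the 23 accessory subunits of complex I had a median log2 change of -0.46 with interferon in WT cells, with 22 of the 23 below 0. The 6 core subunits had a median of 0.05, with 2 of 6 below 0. In complex IV the median over 13 genes was -0.36, with 9 below 0. In the ATP synthase the 10 subunits of the Fo part and outer stalk, which hold the rotating ring in the membrane, had a median of -0.35, and the 5 subunits of the catalytic F1 part had a median of -0.07. Complexes II and III had medians of -0.21 over 3 genes and -0.09 over 6. The standard error of a single gene's change was 0.16 at the median of the set.

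Ndufb2, an accessory subunit of complex I, had the smallest p of the set in this comparison. Its levels were 10.73, 10.26, 10.92 and 9.95 on WT vehicle arrays 1 to 4 and 9.33, 10.14, 9.35 and 9.70 on WT interferon arrays 1 to 4. Interferon array 2 lay among the vehicle arrays, and the other interferon arrays lay below all vehicle arrays. The log2 change was -0.84 ± 0.23 (SE, adjusted p = 0.0594). Ndufb3, another accessory subunit, had levels of 11.69, 11.53, 11.77 and 11.23 with vehicle and 10.74, 11.34, 10.95 and 10.91 with interferon, a change of -0.57 ± 0.16 (adjusted p = 0.0635). Again array 2 was the interferon array that overlapped the vehicle arrays.

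In complex IV the most negative change was that of Cox7a2, the liver form of subunit 7a, with 10.65, 10.05, 10.67 and 9.70 in WT vehicle and 8.77, 10.02, 9.03 and 9.29 in WT interferon (-0.99 ± 0.30, adjusted p = 0.0674). Its array 2 with interferon lay above the lowest vehicle array. For 2 genes of the set the WT interferon arrays lay below the WT vehicle arrays with no overlap, where 5.10% of all genes did so. These were Cox4i1, the common form of subunit 4, at 13.52 to 13.83 with vehicle and 13.30 to 13.47 with interferon (-0.33 ± 0.11, adjusted p = 0.0777), and Ndufa4, at 13.37 to 13.65 and 12.95 to 13.29 (-0.37 ± 0.12, adjusted p = 0.0748). Neither was called.

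Among the positive changes in WT cells were those of Atp5b, Uqcrc2 and Atp5a1, and none of them passed the threshold. Uqcrc2, core protein 2 of complex III, had levels of 11.55, 11.88, 11.44 and 11.88 in WT vehicle and 12.59, 11.86, 12.22 and 12.45 in WT interferon (0.59 ± 0.17, adjusted p = 0.0626). Only interferon array 2 overlapped the vehicle range. Atp5b, the catalytic beta subunit, and Atp5a1, the alpha subunit, both named after their values were seen, had changes of 0.72 ± 0.28 (adjusted p = 0.102) and 0.56 ± 0.18 (adjusted p = 0.0727).

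In the WT interferon comparison the count depended on which arrays were used. Without WT interferon array 2, the dim array named above, 38 genes were called, 4 higher and 34 lower, which is 55.9% of the set where 20.6% of all genes were called. Without WT vehicle array 4 the count was 16 (2 higher and 14 lower), or 23.5% against 16.5% of all genes. Without WT vehicle array 2 it was 6 (3 higher and 3 lower), or 8.82% against 11.6%. With log2 brightness as a covariate 0 genes were called, where 0.0310% of all genes were, the median log2 change was 0.00 and the accessory subunits of complex I stood at -0.02. Without the 3 dimmest arrays (WT vehicle 1 and 3 and WT interferon 2) 0 were called, where 1.82% of all genes were, and the median was -0.30.

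**Figure D2:**
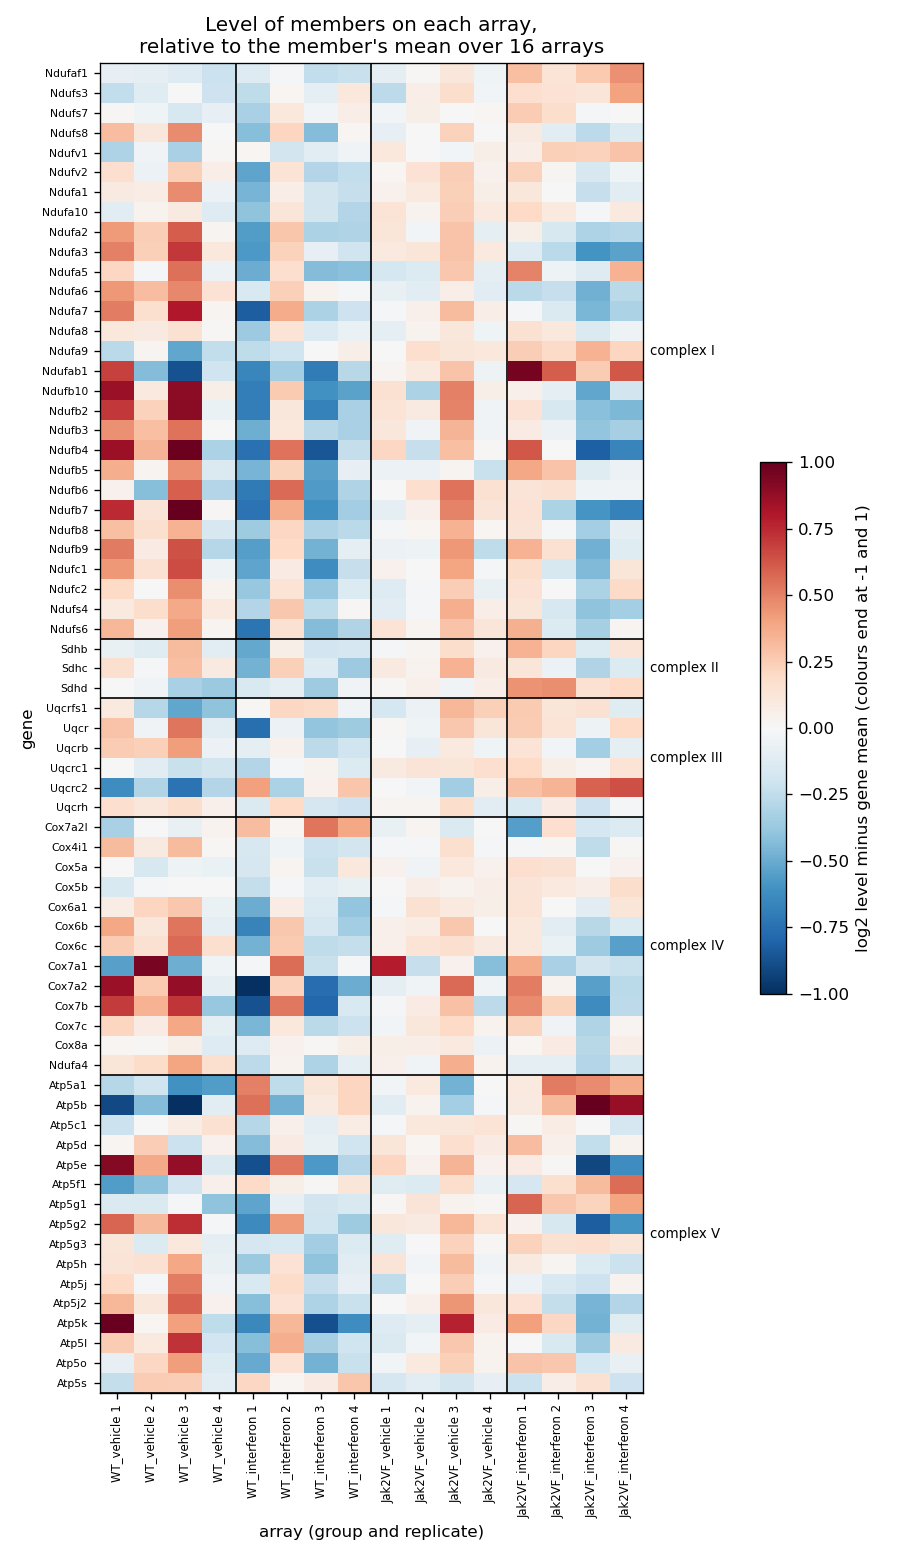
Heat map of genes of the set (one line each, grouped by complex, with 1 gene not drawn) on the 16 arrays (columns, grouped by genotype and treatment), as log2 level minus the gene's mean over all arrays, with colours ending at -1 and 1. Most accessory subunits of complex I are blue on WT interferon arrays 1, 3 and 4 and not on array 2, and Atp5a1, Atp5b and Uqcrc2 run the other way.

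With interferon in Jak2VF cells 1 of 68 genes was called, Uqcrc2, which rose (1.47% of the set, where 6.51% of all genes tested were called higher and 9.46% lower). Its levels were 12.17, 12.15, 11.83 and 12.24 in Jak2VF vehicle and 12.47, 12.51, 12.77 and 12.82 in Jak2VF interferon, so that every interferon array lay above every vehicle array. The log2 change was 0.55 ± 0.17 (SE), a 1.46-fold rise, with an adjusted p of 0.0390 in limma. The call was lost with brightness as a covariate (0.24, adjusted p = 0.177), within each slide (0.33, adjusted p = 0.727, and 0.76, adjusted p = 0.140) and in 8 of 16 fits that left out 1 array, with an adjusted p of up to 0.124. These were the fits without any 1 of the Jak2VF vehicle arrays, without Jak2VF interferon array 2, 3 or 4, and without WT interferon array 3. All of these values kept their sign.

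The set as a whole had a median log2 change of -0.09 with interferon in Jak2VF cells, against 0.00 over all genes, with 24 genes above 0 and 44 below. The median was 0.05 within slide 1, with 47 of 68 above 0, and -0.24 within slide 2. It was -0.0033 without Jak2VF interferon array 3 and -0.04 without Jak2VF vehicle array 3. The accessory subunits of complex I had a median of -0.17 and the core subunits 0.13. At an unadjusted p under 0.05 the count was 6 higher and 4 lower, where 29.9% of all genes reached that mark. With brightness as a covariate the median was 0.12, and 3 genes were called (4.41%, where 12.3% of all genes were), Atp5g1 (0.47, adjusted p = 0.0205), Ndufa5 (0.56, adjusted p = 0.0141) and Uqcr (0.35, adjusted p = 0.0394).

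Among genes that did not pass the threshold, Atp5b, the gene with the most positive change, had levels of 14.38, 14.53, 14.14 and 14.48 in Jak2VF vehicle and 14.58, 14.81, 15.76 and 15.36 in Jak2VF interferon (0.75 ± 0.28, adjusted p = 0.0822). The interferon arrays lay above all vehicle arrays. Ndufaf1 had a change of 0.29 ± 0.10 (adjusted p = 0.0659), and Atp5g2, 1 of the genes for the c subunit of the Fo ring, had a change of -0.56 ± 0.24 (adjusted p = 0.126). The c subunit genes Atp5g1, Atp5g2 and Atp5g3 encode the same mature protein behind different targeting peptides, and their changes with interferon in Jak2VF cells were 0.32, -0.56 and 0.14, with adjusted p-values of 0.107, 0.126 and 0.433.

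Between the genotypes with vehicle, 0 of 68 genes were called, where 0.424% of all genes were. At an unadjusted p under 0.05 the count was 5 higher and 1 lower in Jak2VF cells, where 20.8% of all genes reached that mark. The smallest p belonged to Ndufa6, an accessory subunit of complex I of the LYR family, at 12.76, 12.63, 12.81 and 12.48 in WT vehicle and 12.26, 12.21, 12.40 and 12.22 in Jak2VF vehicle (-0.40 ± 0.11, adjusted p = 0.131). The groups did not overlap. Ndufa9, another accessory subunit, was at 11.54, 11.84, 11.29 and 11.56 in WT vehicle and 11.81, 11.98, 11.93 and 11.91 in Jak2VF vehicle (0.35 ± 0.12, adjusted p = 0.157). WT array 2 lay above the lowest Jak2VF array, so these groups overlapped. The median log2 change of the set was -0.07. It was 0.16 once brightness was a covariate and 0.06 without the 3 dimmest arrays, so its sign changed in these fits. Those arrays were all WT, with WT vehicle arrays 1 and 3 among them, and brightness differed between the groups. The median was -0.0047 without WT vehicle array 3 and -0.12 without WT vehicle array 4 or Jak2VF vehicle array 3. Within slides 1 and 2 it was -0.11 and -0.02.

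With interferon, 7 of the 68 genes were called between Jak2VF and WT cells, 6 higher and 1 lower in Jak2VF cells, which is 10.3%, where 17.7% of all genes tested were called (7.62% higher and 10.1% lower). The 6 came from every complex except IV: Ndufab1 and Ndufaf1 of complex I, Sdhd of complex II, Uqcr of complex III and Atp5g1 and Atp5g3 of complex V. Cox7a2l was lower. The median log2 change of the set was 0.16, against 0.01 over all genes tested, and 54 of 68 changes lay above 0. The median was 0.09 without WT interferon array 1, 0.10 without Jak2VF interferon array 1 and 0.25 with brightness as a covariate, and within slides 1 and 2 it was 0.22 and 0.08. At an unadjusted p under 0.05 the count was 14 higher and 2 lower, where 29.4% of all genes reached that mark. The arrays of the 2 groups did not overlap for 10 genes with Jak2VF higher and 1 with Jak2VF lower, where 13.2% and 14.7% of all genes had such groups.

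Ndufab1, the mitochondrial acyl carrier protein, which is also an accessory subunit of complex I, had the largest difference. Its levels were 6.55, 6.86, 6.51 and 6.93 on WT interferon arrays 1 to 4 and 8.17, 7.82, 7.46 and 7.83 on Jak2VF interferon arrays 1 to 4. All Jak2VF arrays lay above all WT arrays. The log2 change was 1.10 ± 0.26 (SE, adjusted p = 0.00805), a 2.15-fold difference. In WT vehicle the same gene ran from 6.34 to 7.89, a wider spread than in any other group, and 1 of those 4 arrays did not detect it.

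Ndufaf1, which assembles the membrane part of complex I, had levels of 10.28, 10.39, 10.16 and 10.19 in WT interferon and 10.71, 10.55, 10.67 and 10.87 in Jak2VF interferon. The groups did not overlap, and the change was 0.44 ± 0.10 (adjusted p = 0.00798), or 1.36-fold. The core subunits of complex I were all higher without a call, with changes from 0.05 to 0.29 and a median of 0.26. Of the 23 accessory subunits, 19 were above 0 with a median of 0.17, and Ndufa6 went the other way at -0.34 ± 0.11 (adjusted p = 0.0548), with groups that did not overlap.

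Sdhd, a membrane anchor of succinate dehydrogenase whose promoter is printed above, had levels of 10.44, 10.51, 10.24 and 10.57 in WT interferon and 11.05, 11.07, 10.75 and 10.80 in Jak2VF interferon. The groups did not overlap, and the change was 0.48 ± 0.12 (adjusted p = 0.0148), or 1.39-fold. Sdhb, the iron-sulfur subunit, had a change of 0.34 ± 0.15 (adjusted p = 0.129), and Sdhc, the other anchor, one of 0.09 ± 0.15 (adjusted p = 0.772). The other passing probes of Sdhb had changes of 0.63 and 0.26 here, of the same sign as the brightest. For interferon against vehicle the sign differed for one of them in WT cells (0.59) and for the other in Jak2VF cells (-0.04). The other passing probe of Sdhc, detected on 6 arrays, stood at 0.37 here and differed in sign in the other pairwise comparisons.

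Uqcr, a small subunit of complex III, had levels of 12.24, 12.94, 12.60 and 12.63 in WT interferon and 13.24, 13.13, 12.94 and 13.19 in Jak2VF interferon, with the highest WT array close to the lowest Jak2VF array. Its change was 0.52 ± 0.17 (adjusted p = 0.0409), or 1.44-fold. WT vehicle, at 12.88 to 13.53, and Jak2VF vehicle, at 12.95 to 13.26, overlapped the Jak2VF interferon arrays, and WT interferon was the group that stood low. The WT change with interferon, -0.56 ± 0.17, did not pass the threshold (adjusted p = 0.0662). Uqcrc2 had a change between genotypes of 0.36 ± 0.17 (adjusted p = 0.167).

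In complex IV the level of Cox7a2l fell between WT and Jak2VF cells with interferon, with Jak2VF arrays at 10.81, 11.52, 11.18 and 11.22 against 11.67, 11.37, 11.89 and 11.74 in WT interferon. The groups overlapped, since Jak2VF array 2 lay above WT array 2. The change was -0.49 ± 0.15 (adjusted p = 0.0383). Both vehicle groups lay between 11.03 and 11.39. Among the tissue forms, Cox7a2 had a change of 0.45 ± 0.30 (adjusted p = 0.365) and Cox7a1, detected on 3 of 4 WT interferon and 1 of 4 Jak2VF interferon arrays, one of -0.17 ± 0.32. Cox5a and Cox5b, which encode different subunits of complex IV, had changes of 0.15 ± 0.10 and 0.23 ± 0.09 (adjusted p = 0.366 and 0.101), and those of Cox4i1, Cox6a1, Cox6b and Cox8a lay between -0.02 and 0.28 with no call.

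In the ATP synthase the rise was in 2 of the c subunit genes. Atp5g1 had levels of 12.58, 13.03, 12.93 and 12.96 in WT interferon and 13.70, 13.38, 13.33 and 13.50 in Jak2VF interferon, with no overlap (0.60 ± 0.13, adjusted p = 0.00469, 1.52-fold). Jak2VF vehicle arrays lay between, at 13.13 to 13.24, and did not overlap WT vehicle, at 12.71 to 13.10. Atp5g3 had levels of 14.14, 14.16, 13.97 and 14.18 in WT interferon and 14.55, 14.46, 14.48 and 14.43 in Jak2VF interferon (0.37 ± 0.11, adjusted p = 0.0274, 1.29-fold), again with no overlap. Atp5g2 did not follow, at -0.20 ± 0.24 (adjusted p = 0.656). The F1 subunits had a median change of 0.20, and none of the 5 was called.

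**Figure D3:**
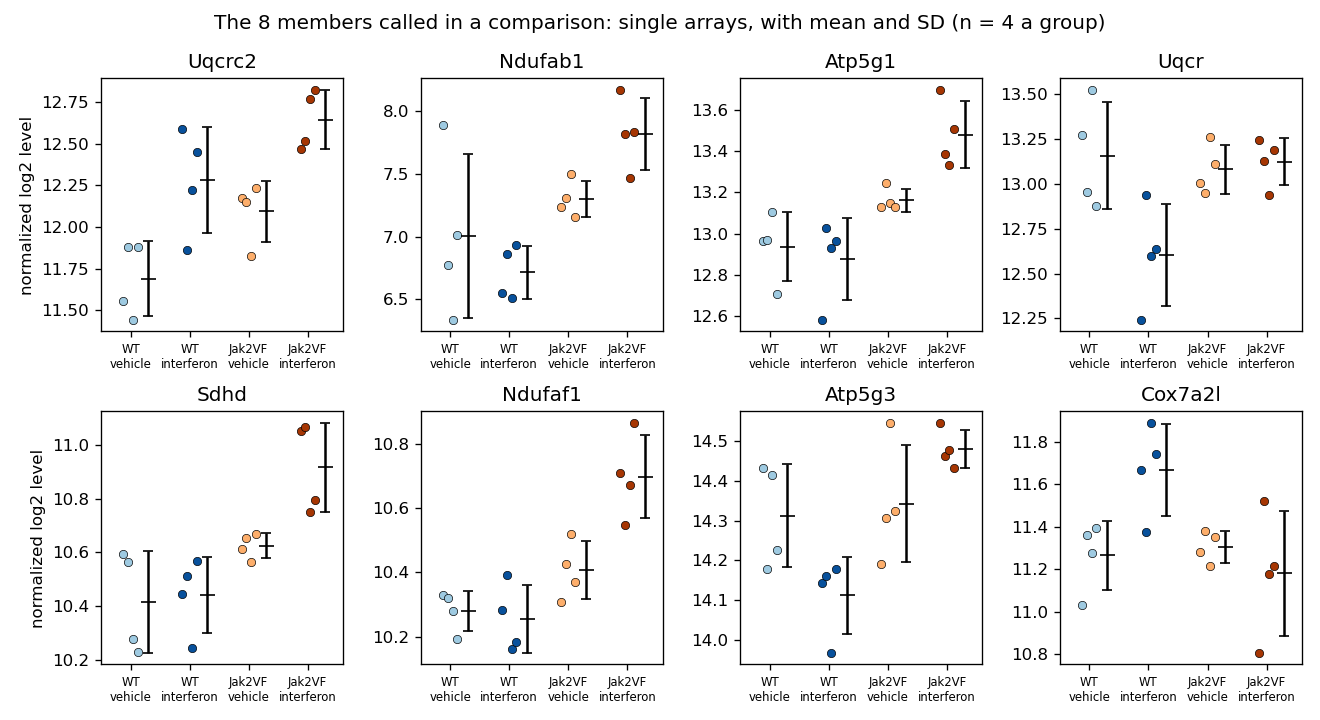
Normalized log2 level of the 8 genes called in a comparison, 1 panel each, with single arrays as points and the mean with its SD (n = 4) beside each group. For Ndufab1, Atp5g1, Sdhd, Ndufaf1, Atp5g3 and Uqcr the Jak2VF interferon arrays lie at or above the WT interferon arrays, for Cox7a2l they lie mostly below, and Uqcrc2 is highest in Jak2VF interferon.

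Each of the 7 differences kept its sign in every alternative tried. Within slide 1 and within slide 2, with 2 arrays a group, 0 of 68 genes were called, where 0.723% and 0.0517% of all genes were. In these slides the change of Ndufab1 was 1.28 and 0.93, that of Atp5g1 0.73 and 0.47 and that of Sdhd 0.58 and 0.37. Ndufab1, Atp5g1, Ndufaf1 and Sdhd were called in all 16 fits that left out 1 array, while Atp5g3 lost its call in 5 (adjusted p up to 0.0794), Uqcr in 9 (up to 0.118) and Cox7a2l in 9 (up to 0.119). The same genes lost it with median centring in place of quantile normalization, at adjusted p-values of 0.449, 0.162 and 0.0688. The count over the set was 4 without Jak2VF interferon array 1, without Jak2VF interferon array 4 or without WT interferon array 3, which is 5.88%, where 14.3%, 10.8% and 14.1% of all genes were called. It was 24 with a covariate for brightness (23 higher and 1 lower), or 35.3% where 22.6% of all genes were called. It was 17 without the 3 dimmest arrays (16 higher and 1 lower), or 25.0%, where 24.8% of all genes were called.

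**Figure D4:**
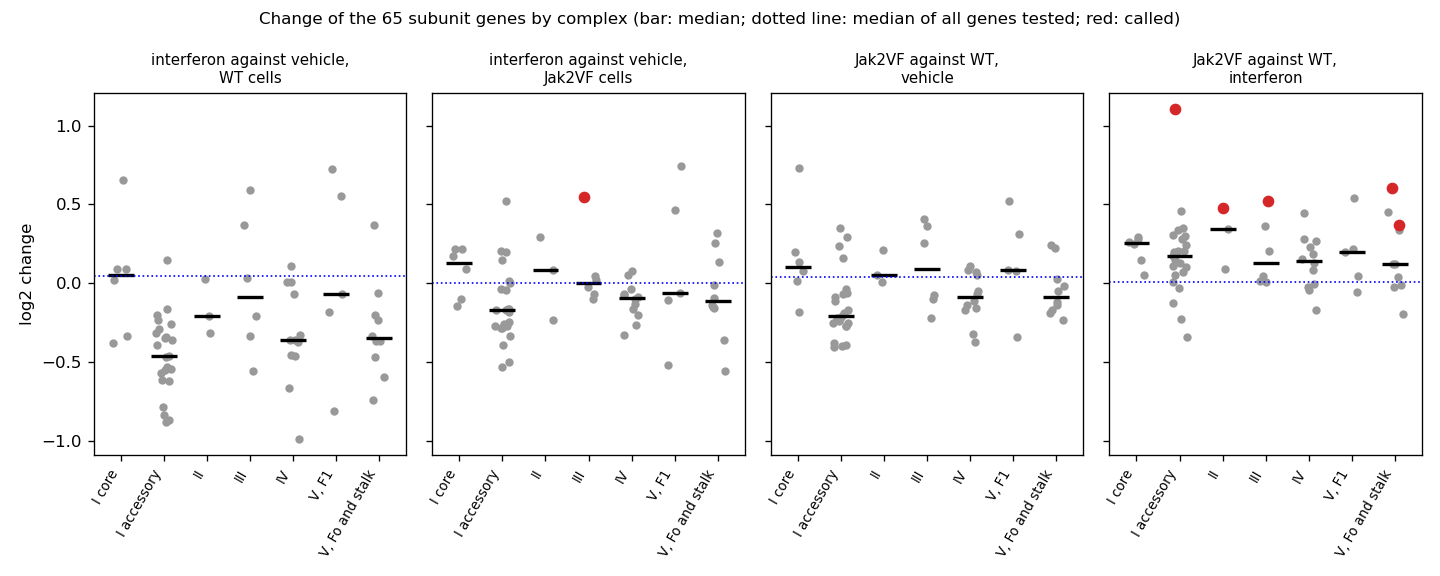
Log2 change of the 65 subunit genes (points) in the 4 pairwise comparisons, split by complex and, in complexes I and V, by role, with the median of each class as a bar, the median of all genes tested as a dotted line and called genes in red. In WT cells with interferon the accessory subunits of complex I centre on -0.46 and the core subunits on 0.05, and between genotypes with interferon all classes centre above the dotted line.

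The test of the difference between the genotypes in the interferon change called 0 of 68 genes, where 0.114% of all genes were called, and 7 reached an unadjusted p under 0.05, where 14.1% of all genes did. The smallest p belonged to Uqcr, with a difference of 0.60 ± 0.23 (Jak2VF change minus WT change, adjusted p = 0.271), followed by Cox7a2l at -0.53 ± 0.22 (adjusted p = 0.285) and Ndufa5, an accessory subunit of complex I, at 0.67 ± 0.27 (adjusted p = 0.288). Ndufa5 ran at 11.75, 11.53, 12.10 and 11.48 in WT vehicle, 11.05, 11.71, 11.11 and 11.12 in WT interferon, 11.37, 11.41, 11.81 and 11.45 in Jak2VF vehicle and 12.04, 11.49, 11.42 and 11.89 in Jak2VF interferon. Its low values were those of WT interferon arrays 1, 3 and 4. The median difference over the set was 0.20, against -0.07 over all genes, with 55 of 68 above 0. It was 0.12 without WT interferon array 1 and 0.12 with brightness as a covariate, 0.31 and 0.10 within slides 1 and 2, and 0.44 with median centring, where all genes stood at 0.17.

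Other genes around the respiratory chain were read from lists for comparison. Between Jak2VF and WT cells with interferon, mitochondrial import and chaperone genes were called higher in 10 of 19 cases (52.6%, where 7.62% of all genes were called higher) and lower in 0, with a median log2 change of 0.39. Among them were Phb2, a prohibitin of the inner membrane (0.71 ± 0.12, adjusted p = 0.00109), Hspe1, the co-chaperonin of the matrix (0.74 ± 0.15, adjusted p = 0.00366), Tomm6 of the outer membrane pore (0.78 ± 0.19, adjusted p = 0.0101) and Hspd1, the chaperonin of the matrix (0.61 ± 0.16, adjusted p = 0.0167). With interferon in Jak2VF cells 8 of the 19 rose (42.1%, against 6.51% of all genes), Hspd1 (0.79) and Hspa9, the motor of matrix import (0.73), among them. With interferon in WT cells 1 of 19 rose, Hspd1 (0.75 ± 0.16, adjusted p = 0.0321), where 1.26% of all genes were called higher. With a covariate for brightness that call was lost (0.35 ± 0.12, adjusted p = 0.483). The counts in that fit were 14 between genotypes and 10 in Jak2VF cells, where 10.1% and 4.62% of all genes were called higher. Without the 3 dimmest arrays the 3 counts were 11, 9 and 1, where 11.3%, 14.7% and 0.950% of all genes were called higher.

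Of 36 assembly factors 4 (11.1%) were higher in Jak2VF cells with interferon and 0 lower, near the 7.62% of all genes called higher: Ndufaf4 (0.72 ± 0.13, adjusted p = 0.00137), Ecsit (0.59 ± 0.11, adjusted p = 0.00227), both of complex I, Ndufaf1 itself and Sdhaf3 of complex II (0.39 ± 0.12, adjusted p = 0.0428). Of 22 genes of the citrate cycle and pyruvate dehydrogenase 5 (22.7%) were higher and 0 lower, among them citrate synthase Cs (0.81 ± 0.18, adjusted p = 0.00693) and malate dehydrogenase Mdh2 (0.49 ± 0.11, adjusted p = 0.00591). Among 10 antioxidant and uncoupling genes 4 (40.0%) were higher, with Prdx3, a peroxiredoxin, at 0.69 and Sod2, the manganese superoxide dismutase, at 0.49. Of 19 subunits and carriers that the symbol rule leaves out 2 (10.5%) were higher, Pdss1, which makes the tail of ubiquinone, at 0.66 and Atpif1, the inhibitor of the ATP synthase, at 0.34. Of 19 regulators of mitochondrial biogenesis 1 (5.26%) was higher, the mitochondrial RNA polymerase Polrmt (0.46 ± 0.14, adjusted p = 0.0323). The shares of these last 2 lists lay near that of all genes. With interferon in Jak2VF cells 2 regulators (10.5%, against 6.51% of all genes) rose, Gabpa, the DNA-binding subunit of GABP (1.36 ± 0.32, adjusted p = 0.0101), and Yy1 (0.63 ± 0.20, adjusted p = 0.0389). With brightness as a covariate the call of Gabpa was lost (1.01 ± 0.33, adjusted p = 0.0609) and that of Yy1 was kept (0.79 ± 0.22, adjusted p = 0.0306). With a covariate for brightness the counts higher between the genotypes with interferon (10.1% of all genes) were 14 import and chaperone genes, 8 assembly factors, 4 genes of the citrate cycle, 4 antioxidant genes, 4 subunits and carriers and 3 regulators, and 1 gene each of the citrate cycle and antioxidant lists was lower.

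Markers of some cell types differed between the groups. The median deviation of the 68 genes averaged 0.14 in WT vehicle, 0.07 in Jak2VF vehicle, -0.18 in WT interferon and -0.02 in Jak2VF interferon. The summed linear level of 9 erythroid markers was 8798 to 11501 on the Jak2VF interferon arrays, 4482 to 5360 on Jak2VF vehicle, 4086 to 5362 on WT interferon and 2887 to 4021 on WT vehicle arrays, and a further marker, Alas2, did not pass the filter. The summed level of 12 stem cell markers was 7890 to 14225 on the Jak2VF interferon arrays and 15576 to 24217 over the other groups, and that of 7 megakaryocyte markers 6595 to 18028 against 20257 to 44187. Between the genotypes with interferon 5 of 9 erythroid markers were called higher, where 7.62% of all genes were. In the same comparison 5 of 12 stem cell markers and 6 of 7 megakaryocyte markers were lower, where 10.1% of all genes were. Interferon against vehicle called 3 of 9 erythroid markers higher in the WT groups (1.26% of all genes), and 0 of 12 stem cell and 0 of 7 megakaryocyte markers. In the Jak2VF groups it called 6 of 9 erythroid markers higher (6.51% of all genes). There it called 4 of 12 stem cell and 6 of 7 megakaryocyte markers lower (9.46% of all genes).

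Eosinophil, granulocyte and monocyte, and B and plasma cell markers had negative median changes with interferon in both genotypes. Of 4 eosinophil markers 4 were lower with interferon in WT cells (median log2 change -4.03) and 4 in Jak2VF cells (-3.90), where 1.01% and 9.46% of all genes were called lower. Their summed level was 6976 to 31853 on WT vehicle and 115 to 1313 on WT interferon arrays, and 6093 to 18425 and 124 to 975 on the Jak2VF arrays, and Il5ra, a further marker, did not pass the filter. Of 11 granulocyte and monocyte markers 2 were lower in WT cells (median -1.03) and 3 in Jak2VF cells (-0.79), with summed levels of 25311 to 86832 and 18698 to 25828 in WT and 14900 to 67246 and 9518 to 11081 in Jak2VF cells, vehicle first. Of 4 B and plasma cell markers 2 were lower in each genotype (medians -1.44 and -1.20), with summed levels of 1138 to 2064 and 558 to 774 in WT and 777 to 1344 and 252 to 436 in Jak2VF cells, while Cd79a and Ebf1 did not pass the filter. For mast cells and basophils 0 of 4 markers were called in WT cells and 2 of 4 were lower in Jak2VF cells. For T and NK cells the counts were 0 of 2 and 1 of 2, and 3 further markers did not pass the filter. The part of all these markers in the differences of the respiratory chain genes was not tested, and in bulk RNA fewer cells of a type and less RNA per cell cannot be told apart.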

How the data were processed

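RNA from 16 samples in 4 groups was measured on Illumina bead arrays. Per the labels' protocols extraction used the PicoPure kit, amplification the TotalPrep kit, and the label was biotin. Per the file headers, the deposited table used here holds an average signal, an intensity on a linear scale, for each of 25697 probes. Beside each signal stands a detection p-value, per the file headers. For the scanner software and earlier background steps, the methods are not given in sources used here. Another deposited table, with intensity values that the authors normalized, served as an alternative.

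Intensities were background corrected (normexp, background inferred from detection p-values, offset 16), then quantile normalized and log2 transformed, all with the neqc function of limma 3.58.1 under R 4.3.3. Genes needed a detection p under 0.05 on at least 4 arrays, and the brightest probe stood for a gene. The 9680 genes were fitted together with lmFit and eBayes on 4 group means, which left 12 residual degrees of freedom beside 2.73 prior ones. Benjamini-Hochberg adjustment ran over all genes within each of 5 comparisons, with calls made below an adjusted p of 0.05. The procedure was tested on simulated data. The number of arrays limits the precision.

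The members, lists and tests were chosen with earlier results of these data known. Named in each comparison were the called members, at most 10 each way, or, with no call, the 3 of smallest p. The 2 with the smallest p in each complex, the complex II genes, the tissue forms, Cox5a, Cox5b and the c subunit genes were named whatever their values, as were at most 4 called genes of each related list. Atp5a1, Atp5b and some values of single members outside this rule were chosen after they were seen. The naming rule selects 1 further gene, which is not reported here but enters every count. Alternatives were the background step, normalization, filter, slide, brightness, the groups fitted, the threshold and leaving out single arrays.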

Additional observations from a re-analysis of the deposited data

Results flagged for a closer look

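For the 26 named genes, each set of 4 arrays was searched for an array whose gap to the nearest other array took up most of the range of its group, by Dixon's test. Of 104 sets 9 held such an array. Chance alone gives about 1 in 20 for independent sets, but these sets share the same arrays, so no excess can be read from the count. Jak2VF interferon array 3, the brightest of all, was lowest for Cox4i1 at 13.26, for Cox8a at 13.31 and for Ndufa6 at 11.85 (log2 levels). Jak2VF vehicle array 3, the dimmest of its group, was highest for Cox4i1 at 13.67 and for Cox7a2 at 10.36. WT vehicle array 3, the dimmest of all, was highest for Sdhb at 11.37. WT interferon array 2, the dimmest of its group, was highest for Ndufa5 at 11.71. WT interferon array 3 was lowest for Atp5g3 at 13.97, and WT vehicle array 1 was lowest for Cox5b at 13.50. In all but the last pair of these sets the array that stood apart was the brightest or the dimmest of its group. Any group of 4 arrays has 1 of each, and a link to brightness was not tested here.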

How the results depend on the processing

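No paired analysis was possible because the labels give no replicate numbers, and those used here follow accession order. Counts below are of the 68 genes called. For interferon in WT cells (0 as reported) the count was 12 with no background correction, 6 on the authors' normalized values and 19 at an adjusted p under 0.10 (17.6%, 8.82% and 27.9%, where 8.24%, 6.82% and 18.5% of all genes were called), and 0 to 38 with single arrays left out. For interferon in Jak2VF cells (1 as reported) it was 4 with no background correction, 2 with median centring, 3 on the authors' values, 0 with no filter on dim probes, 3 with detection on 12 or more arrays, 0 within either slide, 3 with a brightness covariate, 7 without the 3 dimmest arrays, 4 with only the groups compared, 5 at an adjusted p under 0.10, 4 with slide and brightness together (chosen after seeing the data) and 0 to 3 with single arrays left out, each a smaller share than that of all genes. Between genotypes with vehicle it was 0 under every alternative and 0 to 1 with single arrays left out, the 1 without WT vehicle array 4. Between genotypes with interferon (7 as reported) it was 11 with no background correction (16.2%, where 19.3% of all genes were called). On the authors' values it was 9, with no filter on dim probes 5 of 73, and with detection on 12 or more arrays 9. With only the groups compared it was 6, and at an adjusted p under 0.10 it was 10. Within either slide it was 0, and with single arrays left out 4 to 9. All of these were smaller shares than those of all genes. With a brightness covariate it was 24, as with slide and brightness together (35.3%, where 22.6% of all genes were called). Without the 3 dimmest arrays it was 17 (25.0%, where 24.8% were). For the difference of the interferon changes it was 0 under every alternative. Median centring moved the median of all genes to -0.31 for interferon in WT cells, -0.20 in Jak2VF cells, -0.27 between genotypes with vehicle and -0.16 with interferon. The set stood at -0.65, -0.19, -0.26 and 0.25, so it lay below all genes in the first and above them in the last. A further 11 genes are listed under older names whose current symbols meet the symbol rule. With them, a choice made after seeing the data, the count between genotypes with interferon was 8 of 79, with Ndufaf4 added. This is 10.1%, where 17.7% of all genes were called. The causes of these shifts were not tested. A slide holds 2 arrays of each group, which leaves little power within it, and probes near background, such as that of Uqcrfs1, carry no fold.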
